A study of Homo sapiens with 4 samples.

Results

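PML, the 4 genes of the SP100 family (SP100, SP110, SP140 and SP140L) and 4 interferon-induced TRIM genes (TRIM5, TRIM14, TRIM21 and TRIM22) were examined in NK-92 cells after knockdown of ADAR1. The members were taken by gene symbol, and all 9 were found among the 20323 genes of the table. NK-92 is an established line of human natural killer cells, kept in culture with interleukin-2. NK scramble cells carried a lentiviral scrambled hairpin and NK shADAR1 cells a lentiviral hairpin against ADAR1, the enzyme that converts adenosine to inosine in double-stranded RNA. Both groups went through the same transduction and culture, and each has 2 libraries of poly(A)-selected RNA, called control and knockdown libraries below. The labels number the libraries of each group 1 and 2. The study describes the sequenced knockdown cells as NK shADAR1-2, the second of its 2 hairpins, so both knockdown libraries are taken as replicates of that hairpin. The titles of the knockdown libraries are, however, the same as the names of the 2 hairpins. Whether each library carries a different hairpin could not be checked. If so, the spread within the knockdown group would include any difference between hairpins.

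PML is the scaffold of nuclear bodies, small spheres of protein held together by the modifier SUMO, in which SP100 is the other constant resident. SP110, SP140 and SP140L are relatives of SP100 that read histone marks through shared chromatin-binding domains, and SP140 is largely restricted to lymphoid cells and macrophages. The TRIM proteins, of which PML is itself one, are mostly ubiquitin ligases. TRIM5 intercepts retroviral capsids, TRIM21 is an antibody receptor in the cytosol, TRIM22 restricts viral transcription, and TRIM14, which lacks the RING ligase domain, acts as an adapter at the mitochondrial antiviral protein MAVS. Interferon raises most of these genes through transcription factors that bind promoter elements called ISRE and GAS.

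The promoters were searched for both elements because these genes are known as interferon targets. RefSeq promoters of GRCh38.p14, from 250 bases before to 50 bases after each start site, held 7 of the 9 genes. PML and TRIM22 had no entry. The ISRE core, searched as 2 copies of GAAA with any 2 bases between them, or of TTTC where it reads on the other strand, lay in the promoters of TRIM14, TRIM21 and TRIM5. Of all 27305 genes with a promoter, 4.38% held it. The GAS element, TTCNNNGAA, which reads the same on both strands, lay in 1 of the 2 promoters of SP110 and in a promoter of 9.38% of all genes. None of these 7 genes held both motifs. The windows below, 30 bases each on the strand of the gene, show the matches in capitals.
TRIM14: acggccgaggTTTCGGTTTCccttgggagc
TRIM5: atagtttatcTTTCACTTTCctgccctgag
TRIM21: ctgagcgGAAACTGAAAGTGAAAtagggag
SP110: tcacttttcttTTCTCGGAAgcccggcccc
They lie on the minus strand at chr9:98119229-98119258, chr11:5685082-5685111, chr11:4393663-4393692 and chr2:230220004-230220033. The matches begin 26 bases before the start site in TRIM14, 27 before it in TRIM5 and 38 before it in SP110. In TRIM21, 2 overlapping matches span bases 18 to 33 of the first exon. These are matches of letters, not measured binding sites.

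The 4 SP genes lie side by side on chromosome 2, within 377 kb from 230167293 to 230544090 in GRCh38 (GENCODE release 29). The study's genome build was not given in the sources used here. SP110 runs on the minus strand, and its gene overlaps the start of SP140 on the plus strand by 22620 bases, of which 170 are exonic in both. On chromosome 11, TRIM22 (5689689 to 5737089, plus strand) lies inside the annotated span of TRIM5 (5663557 to 5938619, minus strand), with 0 exonic bases in common. Strand was not stated for the counting, so reads from the shared 170 bases could not be assigned with certainty. TRIM21 lies elsewhere on chromosome 11 (4384897 to 4393696), TRIM14 on chromosome 9 (98069275 to 98119212), and PML on chromosome 15 (73994673 to 74047812).

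The libraries held 37881704 to 39960491 estimated counts each. All 10 NK cell markers examined, NCAM1, NKG7 and PRF1 among them, had at least 1 FPKM in every library. None of 14 markers of T, B, myeloid, epithelial and stromal cells did so in all 4, and their summed FPKM was 1.39 to 2.11 in the control libraries and 2.22 to 4.12 in the knockdown libraries. The part of these markers in the results was not tested. Of the NK markers, CD7, NCAM1 and TBX21 had the largest estimates, with log2 fold changes of 0.19, 0.18 and -0.17 (edgeR, adjusted p = 1.00 each). CD8A, CD8B and MS4A1 were listed at 0 throughout. The B cell marker CD79A had 1.23 FPKM in NK scramble replicate 1 and 2.36 in NK shADAR1 replicate 1. In replicate 2 it had 0.50 in NK scramble and 0.79 in NK shADAR1. ADAR, the targeted gene, had 655 and 682 CPM (counts scaled to a common depth by the TMM method of edgeR) in the control libraries against 575 and 482 in the knockdown libraries. Its log2 fold change (log2FC) was -0.34 with a standard error (SE) of 0.20 (edgeR, adjusted p = 1.00).

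All 9 genes were expressed. On the FPKM scale, which divides by transcript length and so allows a comparison between genes, the levels in NK scramble cells ran from 8.20 ± 1.25 for TRIM5 to 51.5 ± 18.03 for PML (mean ± SD, n = 2). PML lay above 87.7% of the genes with any signal and TRIM5 above 54.5%. The order of mean levels below PML was TRIM14 (44.0), SP110 (40.6), SP100 (37.6), SP140 (22.2), TRIM21 (20.1), TRIM22 (13.2), SP140L (12.6) and TRIM5. Among neighbours in this order, the NK scramble ranges overlapped for PML and TRIM14, for SP110 and SP100, and for TRIM22 and SP140L. These neighbours did not differ beyond their spread. Further apart in the order, the range of PML also overlapped those of SP110 and SP100, and the range of TRIM14 that of SP100. PML and SP100, the constant residents of nuclear bodies, varied most between the control libraries, with an SD of 18.03 for PML and 10.4 for SP100.

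The next question was whether ADAR1 knockdown changed these genes. None of the 9 met the study's thresholds, a 1.5-fold change together with an adjusted p under 0.05 (edgeR's quasi-likelihood test), and the share of all 11810 tested genes that did was 0%. At an unadjusted p under 0.05, 0 of 9 passed in edgeR, with 0.779% of tested genes passing as lower and 1.7% as higher in NK shADAR1 cells. DESeq2 also gave 0 genes of the table at an adjusted p under 0.05 and 289 at an unadjusted p under 0.05. With DESeq2 and these thresholds the study itself reported differentially expressed genes, and those calls were not recovered here for a reason not tested. The estimates were lower in NK shADAR1 cells for 6 of the 9 genes, and the median log2FC was -0.23 beside 2.76e-05 for all tested genes. In 3 of the 9, TRIM14, TRIM21 and TRIM22, both knockdown libraries stood below both control libraries, as in 12.6% of all tested genes. No member stood above, as 13.3% of genes did. In bulk RNA, less RNA per cell and fewer cells with the RNA cannot be told apart.

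TRIM21 was the most even of the 3 separated genes. The control libraries had 38.5 and 39.6 CPM, while the knockdown libraries had 28.0 and 30.02. The log2FC was -0.43 with an SE of 0.19 (edgeR, unadjusted p = 0.0512, adjusted p = 1.00). With each library left out in turn, it stayed between -0.48 and -0.38. The difference between the groups exceeded the difference between the replicates in each group, but not by enough to pass the test across all genes.

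TRIM14 had an estimate of like size and evenness. The control libraries had 199 and 184 CPM, and both knockdown libraries were lower, at 148 and 155. The log2FC was -0.34 with an SE of 0.19 (edgeR, adjusted p = 1.00), and it lay between -0.40 and -0.29 when each library was left out. TRIM14 and TRIM21 are 2 of the 3 genes whose promoter window held the ISRE core.

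TRIM5 was the third gene with that core, and its groups overlapped. It had 20.8 and 26.6 CPM in the control libraries against 21.6 and 19.4 in the knockdown libraries. The log2FC of -0.21 had an SE of 0.22 (edgeR, adjusted p = 1.00). The gap between the control replicates, 0.36 on the log2 scale, was larger than that estimate, and without NK scramble replicate 2 the estimate was -0.025.

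TRIM22 had the largest estimate of the 9 genes and the least even one. NK scramble replicates 1 and 2 had 25.6 and 28.4 CPM, NK shADAR1 replicate 1 had 23.9 CPM and replicate 2 had 11.5 CPM. The first knockdown library was thus near the controls and the second far below them. The log2FC was -0.61 with an SE of 0.31 (edgeR, adjusted p = 1.00). It was -0.18 without NK shADAR1 replicate 2 and -1.24 without NK shADAR1 replicate 1, so 1 library sets its size.

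**Figure D1:**
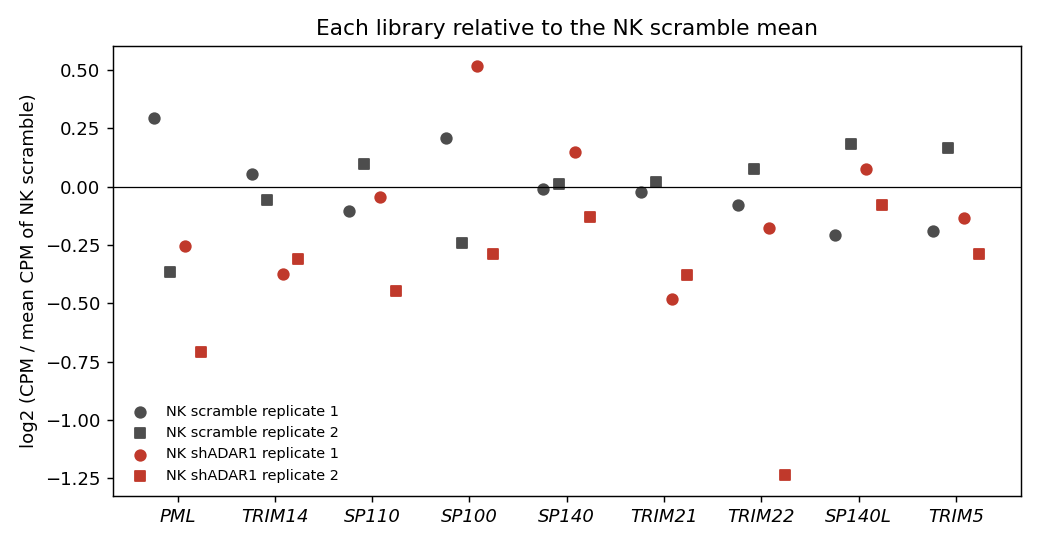
log2 of each library's CPM over the mean CPM of NK scramble for each gene, with 1 point per library (grey, NK scramble; red, NK shADAR1; circles, replicate 1; squares, replicate 2). TRIM22 in NK shADAR1 replicate 2 lies at -1.24, and SP100 in NK shADAR1 replicate 1 lies at 0.52.

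PML varied most between control libraries. It had 197 CPM in NK scramble replicate 1, 125 in replicate 2, 135 in NK shADAR1 replicate 1 and 98.4 in replicate 2, so the groups overlapped. The replicates of NK scramble differed by 0.66 on the log2 scale, more than the log2FC of -0.46 (SE 0.26, edgeR, adjusted p = 1.00). Without NK scramble replicate 1 the log2FC was -0.10, and without NK scramble replicate 2 it was -0.76. It was -0.26 without NK shADAR1 replicate 2 and -0.71 without NK shADAR1 replicate 1.

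SP100, the partner of PML in nuclear bodies, had the highest estimate of the 9 genes. It had 117 and 85.6 CPM in the control libraries against 145 and 82.8 in the knockdown libraries. Thus the highest and the lowest value both came from the knockdown group. The log2FC was 0.17 with an SE of 0.28 (edgeR, adjusted p = 1.00). Its sign depended on single libraries, with 0.51 without NK shADAR1 replicate 2, 0.41 without NK scramble replicate 1, -0.042 without NK scramble replicate 2 and -0.29 without NK shADAR1 replicate 1. On the FPKM scale it was -0.023.

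SP110 had 105 and 121 CPM in the control libraries against 110 and 82.8 in the knockdown libraries. Only NK shADAR1 replicate 2 lay outside the control range. The log2FC was -0.23 with an SE of 0.21 (edgeR, adjusted p = 1.00), and it was -0.046 without NK shADAR1 replicate 2, -0.13 without NK scramble replicate 2 and -0.45 without NK shADAR1 replicate 1.

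**Figure D2:**
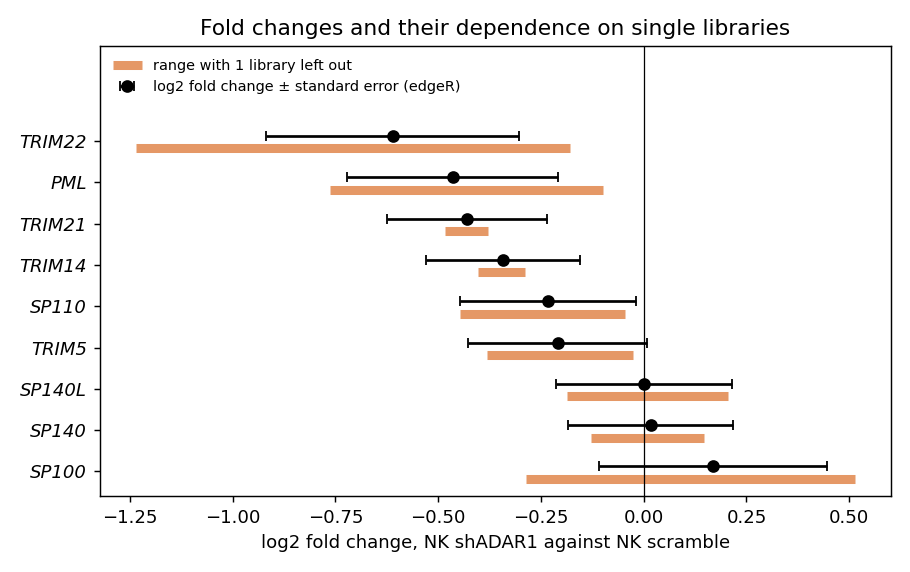
log2 fold change of NK shADAR1 against NK scramble with its standard error from edgeR (black) and the range over 4 fits that each leave out 1 library (orange). The ranges of TRIM14 and TRIM21 are the narrowest of the genes below 0, and those of SP100, SP140 and SP140L cross 0.

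The deposited counts of SP140 and SP140L showed that reads were divided between them. Neither had a whole count, to within 1e-06, in any library. Yet the sum of both came to a whole number in all 4 (3723 and 4048 in the controls, 4209 and 3391 after knockdown). SP140L took 30.2% and 35.9% of that sum in the control libraries and 32.1% and 33.97% in the knockdown libraries. As separate genes, SP140 had 65.0 and 66.0 CPM in the control libraries against 72.6 and 60.0 in the knockdown libraries. SP140L had 28.2 and 37.0 CPM in the control libraries against 34.4 and 30.8 in the knockdown libraries. The groups overlapped in both, and the log2FC values were 0.017 for SP140 (SE 0.20) and 0.00046 for SP140L (SE 0.21). They were also counted as 1 feature, a choice made after the data were seen. This feature had 93.2 and 103 CPM in the control libraries against 107 and 90.8 in the knockdown libraries. Its log2FC was 0.011 with an SE of 0.20 (edgeR, adjusted p = 1.00). Of the 9 genes, 5 had whole counts in all 4 libraries, beside 75.7% of all tested genes. TRIM22 had a whole count in 1 library and TRIM5 in 3. Whether their reads were shared with other genes was not tested.

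The knockdown libraries were unlike each other in this family. NK shADAR1 replicate 2 was below replicate 1 in 7 of the 9 genes, against 50.6% of all tested genes, and TRIM14 and TRIM21 were the exceptions. It was the lowest of the 4 libraries in 6 of the 9, against 21.1% of all tested genes. The exceptions there were TRIM14, TRIM21 and SP140L. Whether the knockdown libraries differ in their hairpin was not tested.

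The deposited count and FPKM of a gene, with the library's total count, imply a transcript length. Whether the authors' program used that length, and whether it follows the mix of transcripts, could not be checked, because the program was not named. For TRIM21 this length was 1920 to 1935 bases in the 4 libraries. For SP100 it was 2625 and 2783 bases in NK scramble, 3330 in NK shADAR1 replicate 1 and 2749 in replicate 2. The library in which SP100 was highest by count was thus also the one with the longest implied length. The FPKM of SP100 there, 45.1, matched the 44.9 of NK scramble replicate 1. The ratio of the longest to the shortest value was 1.27 for SP100, and 12.5% of tested genes had a larger one. SP110 followed with 1.15 and TRIM22 with 1.13, beside a median of 1.06 for all tested genes. For PML the implied length was greatest in NK shADAR1 replicate 2, at 3344 bases, against 3099 to 3163 in the other libraries. These lengths are estimates by gene, and the transcripts of PML and SP100, which encode many isoforms, were not separated.

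**Figure D3:**
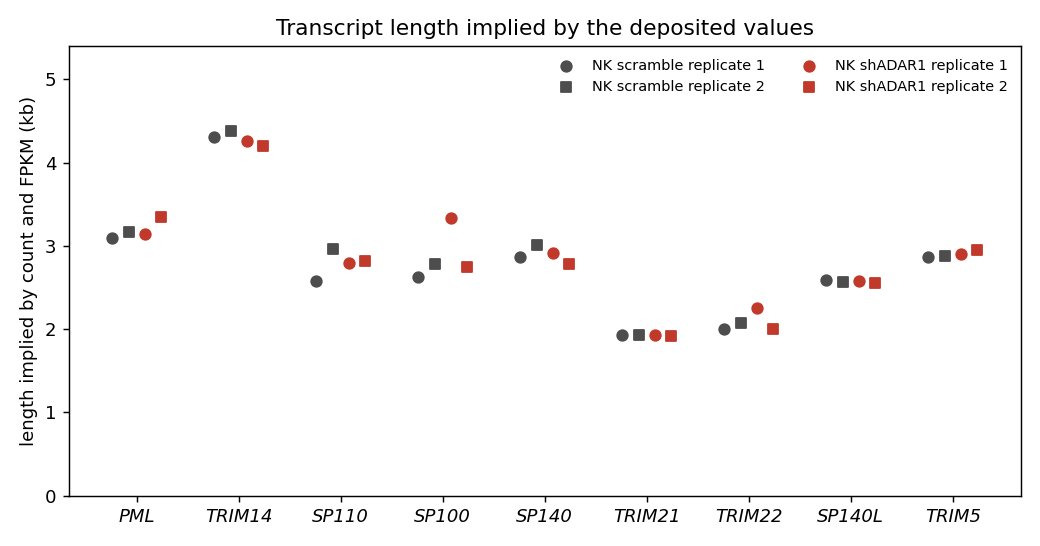
Transcript length in kb implied by the deposited count, the FPKM and the total count of each library, for each gene and library (grey, NK scramble; red, NK shADAR1; circles, replicate 1; squares, replicate 2). The points of TRIM21 lie together, and SP100 in NK shADAR1 replicate 1 stands above its other libraries.

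Among 6 tested TRIM genes that interferon is also known to raise, all 6 estimates were below 0, with a median of -0.15, and in 3 of the 6 both knockdown libraries were below both controls, beside 12.6% of all tested genes. TRIM25, the ubiquitin ligase that activates the RNA sensor RIG-I, had 214 and 223 CPM in the control libraries against 162 and 167 in the knockdown libraries. Its log2FC of -0.41 (SE 0.19) was close to that of TRIM21. TRIM26 had a log2FC of -0.25 (SE 0.20), and TRIM56, an antiviral ligase, of -0.10 (SE 0.21) with overlapping groups. TRIM34, the neighbour of TRIM5, had 278 to 361 counts per library and a log2FC of -0.15, while TRIM6 had at most 2 counts and the readthrough TRIM6-TRIM34 was listed at 0. In the 35 tested TRIM genes outside the 9, which include those 6, the estimates were lower in 18 and higher in 17, with a median of -0.0095. The groups were separate in 10 of them, 5 lower in NK shADAR1 cells and 5 higher, beside 12.6% and 13.3% of all tested genes. TRIM66 was among the higher ones, with 26.2 and 32.2 CPM in the control libraries against 38.4 and 34.6 in the knockdown libraries and a log2FC of 0.32 (SE 0.21). None of them had an unadjusted p under 0.05 in edgeR.

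The partners of PML in nuclear bodies, such as the SUMO machinery and DAXX, ATRX and HIRA of histone chaperone complexes, showed a median log2FC of -0.047. Of 26 tested, 15 estimates were lower and 11 higher. At an unadjusted p under 0.05 in edgeR, where 293 of all 11810 tested genes passed, 1 of the 26 did. This was ISG20, an interferon-induced exonuclease found in these bodies. It had 49.7 and 53.2 CPM in the control libraries against 29.3 and 20.6 in the knockdown libraries, with a log2FC of -1.04 and an SE of 0.22 (edgeR, adjusted p = 1.00). ATRX, which deposits histone H3.3 with DAXX, had a log2FC of 0.53 (SE 0.25), and the helicase gene BLM one of 0.34 (SE 0.20), both with separate groups. DAXX itself was at -0.050 (SE 0.21).

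The enzymes and targets that work with TRIM5, TRIM14 and TRIM21 had their median at 0.014, and of 16 estimates 7 were lower and 9 higher. An unadjusted p under 0.05 in edgeR, reached by 293 of all 11810 tested genes, was found for 1 of the 16. This was CGAS, the DNA sensor that TRIM14 stabilizes. It had 30.9 and 24.1 CPM in the control libraries against 16.1 and 19.7 in the knockdown libraries, a log2FC of -0.62 (SE 0.22, edgeR, adjusted p = 1.00). MAP3K7 and TAB3, which encode parts of the TAK1 kinase complex that TRIM5 activates, had log2FC values of 0.30 and 0.28 with SE 0.20 and 0.22.

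The receptors, kinases and factors that carry the interferon signal had their median at -0.15. Of 12 tested, 8 estimates were lower and 4 higher, and 5 had both knockdown libraries below both controls, which held for 12.6% of all tested genes. IRF9, a transcription factor that binds the ISRE, had 47.6 and 41.7 CPM in the control libraries against 38.1 and 13.3 in the knockdown libraries. IRF7 had 75.9 and 38.4 CPM in the control libraries against 39.2 and 5.94 in the knockdown libraries, so its groups overlapped. In IRF9 and IRF7 the lowest library was NK shADAR1 replicate 2, the same library as in TRIM22, PML and SP110, and the relation between these genes was not tested.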

How the data were processed

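Gene expression was measured by RNA-seq in 2 NK scramble and 2 NK shADAR1 libraries. The authors deposited estimated counts per gene, not scaled for depth, and FPKM values, which the authors scaled by transcript length and sequencing depth. The submitters' processing notes name fastp 0.18.0. The aligner, counting program, build, annotation and strand setting were not given in the sources used here. Of 20323 Ensembl identifiers, 20301 matched a symbol.

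Estimated counts were rounded. The quasi-likelihood test of edgeR 4.0.16 (R 4.3.3) was run without covariates after filterByExpr with a minimum count of 10 and TMM scaling, with Benjamini-Hochberg adjustment over 11810 genes. The standard error is the log2 fold change divided by the square root of F. DESeq2 1.42.0 and limma 3.58.1 on log2(FPKM + 0.1) were alternatives. The FPKM levels themselves were not tested. The edgeR and DESeq2 fits were tested on simulated counts, and the other steps were not. The implied length is the count divided by the FPKM and by the library's total count.

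The members and lists were chosen with earlier results of these data known. The genes named are the 9 members, ADAR, neighbouring TRIM genes and, of each other list, those with an unadjusted p under 0.05 and then those of largest fold change with a mean of at least 10 CPM, up to 3, apart from DAXX, chosen after its values were seen. A gene of the interferon signalling list that this rule names is not reported here. The design text of the series calls the libraries biological replicates, although the titles of the knockdown libraries are also the names of the hairpins. Each group has 2 libraries, which sets the spread that the tests use. Alternative scalings, filters, a replicate block and leaving out each library were tried.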

Additional observations from a re-analysis of the deposited data

How the results depend on the processing

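In every setting run, 0 members passed the joint threshold on adjusted p and fold change, and the adjusted p of a member ranged from 0.412 (TRIM22, without NK shADAR1 replicate 1) to 1.00. At an unadjusted p under 0.05, where edgeR gave 0 members, 1 passed with limma on log2(FPKM + 0.1) and 1 without the count filter. With the replicate number as a block (replicate block), 3 passed, PML, TRIM21 and TRIM22. The share of all tested genes that passed in these settings was not computed, so these counts say nothing particular to the members. The differences between replicates 1 and 2 correlated across genes at r = 0.37 between the groups, a hint that same-numbered libraries moved together. The labels tie no shared day or culture to the numbers and there are only 2 pairs, so the values given are those without the block. The count of members with both knockdown libraries below both control libraries was 3 with each scaling, filter and tool tried. It is not given for the fits that leave out 1 library, because a share of all tested genes was not computed there. Such fits compare 1 library with 2 and assume that the lone library varies like the other group. The median log2 fold change of the members lay between -0.31 and -0.13. Of 91 repeated member estimates, 83 kept their direction and 8 turned it. These belong to SP100 (-0.023 with limma on FPKM, -0.29 to 0.51 when each library was left out), SP140 (-0.13 to 0.15) and SP140L (-0.0045 with DESeq2, -0.0046 without the count filter, -0.19 to 0.20 when each library was left out). The causes were not tested.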
